A study of Mus musculus and Rattus norvegicus with 12 samples.

Results

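The transcription factors described here are 10 genes of the cardiac lineage, taken by symbol with case ignored: Gata4, Gata6, Nkx2-5, Tbx5, Tbx20, Hand1, Hand2, Mef2a, Mef2c and Mef2d. All 10 were found among the 54087 symbols of the mouse table and all 10 among the 28909 symbols of the rat table. RNA sequencing had been done in 12 libraries, 3 in each of 4 groups. Mice of the cKO group carried Jmjd4f/f alleles with MCM, an inducible Cre recombinase driven by the cardiomyocyte promoter of Myh6. Mice of the flox group carried Jmjd4f/f alleles with no Cre in their label. Both groups received tamoxifen, and the heart apex was taken on day 14 after it. The other system was ventricular cardiomyocytes of 1-day-old Sprague-Dawley rats (NRVCs), kept in culture with an siRNA against Jmjd4 (siJmjd4) or a control siRNA (siNC) for 48 h. The age, sex and strain background of the mice are not given in the labels. Because Cre is named for cKO mice alone, an effect of Cre itself and of the loss of Jmjd4 cannot be told apart. Separate animals or isolations are not stated for the replicates of any group. The p-values therefore measure the spread between the libraries, which may be technical.

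These factors belong to 5 families that act together in the heart. GATA4 and GATA6 are zinc finger proteins, NKX2-5 is a homeodomain protein, TBX5 and TBX20 are T-box proteins, HAND1 and HAND2 are basic helix-loop-helix proteins, and MEF2A, MEF2C and MEF2D are MADS-box proteins. They bind near one another at the promoters and enhancers of sarcomere, ion channel and natriuretic peptide genes, and they also regulate each other's genes. In the adult heart several of them keep the contractile and calcium handling programmes running, and GATA4 and the MEF2 proteins are known to take part in hypertrophic growth, where calcineurin and the class II histone deacetylases set MEF2 activity.

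Total counts were 57174654 to 82187009 per library. Jmjd4 was at 8.95, 4.92 and 9.63 CPM (counts scaled to a common library size, adjusted by the TMM method) in cKO hearts, against 19.0, 8.04 and 16.9 CPM in flox hearts, so these groups overlapped (log2 fold change -0.90, SE 0.44, adjusted p = 0.397 in edgeR's quasi-likelihood test). Jmjd4 in NRVCs labelled siJmjd4 was at 3.58, 3.43 and 3.53 CPM, while siNC had 3.46, 4.4 and 0.982 CPM (log2 fold change 0.25, SE 0.52, adjusted p = 0.77). Without siNC replicate 3 the log2 fold change of Jmjd4 was -0.16 (SE 0.21, adjusted p = 0.685), and the groups still overlapped. A lower Jmjd4 level that passed the test was thus not seen in the libraries labelled siJmjd4, and each direction in the NRVCs rests on the labels alone. Flox replicate 3 stood apart, with 41.7% of counts from mitochondrially encoded genes (14.2% to 24.1% elsewhere in the hearts) and 1485 tested genes at 0 (125 to 503 elsewhere). SiNC replicate 3 stood apart too, with 461 tested genes at 0, while the other NRVC libraries had 78 to 137. Its ratio to the other siNC libraries fell with transcript length, with a Spearman rho of -0.48 across genes, which are not independent. Among the heart libraries other than flox replicate 3, cKO replicate 2 had the most tested genes at 0, the 503. Over the 78.9% of tested heart genes with a length, the like rho was -0.62 for flox replicate 3 and -0.55 for cKO replicate 2. It was 0.30 to 0.58 for the remaining heart libraries. All samples are labelled as cardiomyocytes, yet fibroblast markers were detected in both systems: 10 of them summed to 2844 to 5369 CPM in cKO hearts and 1016 to 1378 CPM in flox hearts. In the NRVCs they summed to 41130 to 47880 CPM in libraries labelled siJmjd4 and 35510 to 42500 CPM in siNC libraries, and 11 cardiomyocyte markers summed to 17400 to 21410 CPM in libraries labelled siJmjd4 and 22080 to 31690 CPM in siNC. These sums are not per length and are not ranked.

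The 4 members with the smallest p in the NRVCs were Tbx20, Mef2a, Nkx2-5 and Hand2, and the mouse promoters of these genes are shown because the factors are known to act on each other's genes. The sequences are those of RefSeq on GRCm38.p6, 250 bases before to 50 after an annotated start, and rat sequence was not used here. Of the 10 members, 6 had a promoter in that table. Capitals mark matches, on either strand, to AGATAA for GATA factors, AAGTG for NKX2-5, GGTGTG for T-box factors, CATCTG for HAND factors, or the MEF2 motif.
Tbx20 (chr9:24774254-24774553, minus strand): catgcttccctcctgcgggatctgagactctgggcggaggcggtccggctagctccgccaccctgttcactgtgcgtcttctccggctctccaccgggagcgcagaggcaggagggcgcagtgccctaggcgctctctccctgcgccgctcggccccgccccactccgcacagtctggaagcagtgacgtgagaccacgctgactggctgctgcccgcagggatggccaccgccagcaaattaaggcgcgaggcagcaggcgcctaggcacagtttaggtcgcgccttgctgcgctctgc
Mef2a (chr7:67372809-67373108, minus strand): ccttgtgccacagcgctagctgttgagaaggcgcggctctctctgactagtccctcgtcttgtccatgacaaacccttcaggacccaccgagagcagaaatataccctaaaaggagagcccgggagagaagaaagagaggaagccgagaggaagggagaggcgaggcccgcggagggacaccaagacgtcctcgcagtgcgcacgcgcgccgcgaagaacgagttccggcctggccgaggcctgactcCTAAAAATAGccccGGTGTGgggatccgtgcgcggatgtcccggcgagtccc
Nkx2-5 (chr17:26841516-26841815, minus strand): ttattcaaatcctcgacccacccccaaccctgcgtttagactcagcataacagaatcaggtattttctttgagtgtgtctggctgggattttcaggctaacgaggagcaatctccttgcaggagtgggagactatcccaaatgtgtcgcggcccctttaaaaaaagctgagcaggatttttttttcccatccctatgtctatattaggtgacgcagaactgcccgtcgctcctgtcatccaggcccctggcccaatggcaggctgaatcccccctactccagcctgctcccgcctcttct
Hand2 (chr8:57320733-57321032, plus strand): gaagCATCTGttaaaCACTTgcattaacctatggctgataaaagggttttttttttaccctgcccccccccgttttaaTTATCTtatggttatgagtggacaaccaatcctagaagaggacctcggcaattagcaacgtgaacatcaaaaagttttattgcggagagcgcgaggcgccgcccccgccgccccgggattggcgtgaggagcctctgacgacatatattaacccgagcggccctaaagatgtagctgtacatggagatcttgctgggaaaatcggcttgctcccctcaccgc
The Mef2a promoter held a MEF2 motif across its annotated start and a T-box match just after it, and the Hand2 promoter held a GATA, an NKX2-5 and a HAND match. None of these letters stood in the windows of Tbx20 and Nkx2-5. Over all 32851 promoters, the MEF2 motif was found in 3.19%, AGATAA in 11.2%, CATCTG in 17.2%, GGTGTG in 19% and AAGTG in 46.4%. No motif here overlapped another.

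Levels of different genes can be compared only per length, which was done in the mouse by dividing CPM by the kilobases of annotated exons (GENCODE M21). Nkx2-5 was highest, at 47.6 ± 17.9 CPM per kb in cKO hearts and 37.7 ± 0.757 in flox hearts (SD, n = 3). Gata4 came next, at 31.7 ± 2.91 CPM per kb in cKO and 24.2 ± 6.5 in flox hearts. Mef2d, Hand2 and Tbx20 followed and did not differ beyond their spread, with means of 17.7, 17.1 and 15.2 CPM per kb in cKO hearts and 18.3, 17.8 and 10.5 in flox hearts. Gata6 and Mef2a lay at 9 and 8.1 CPM per kb in cKO hearts and at 8.56 and 9.31 in flox hearts. Tbx5 was at 4.31 CPM per kb in cKO and 3.58 in flox hearts, and Mef2c was lowest of those detected, at 0.696 in cKO and 1.01 in flox hearts. The places of Mef2a and Gata6 turned on the gene model. Per kb of its longest transcript, Mef2a was at 21.5 ± 3.96 CPM in cKO and 24.7 ± 13.1 in flox hearts. These means lay above those of Mef2d, Hand2 and Tbx20, but not beyond their spread. By the same measure Gata6 was at 15.5 CPM in cKO and 14.7 in flox hearts, and Tbx20 was at 13.85 in flox hearts. Hand1 was listed at 0 in all 6 heart libraries, where 3 counts would be 0.0315 to 0.0381 CPM in cKO and 0.0382 to 0.0847 CPM in flox libraries, a limit that covers counting error only and applies only if the authors' counting covered the gene, which was not tested. In the NRVCs Hand1 was detected, at 2.11 ± 0.183 CPM in libraries labelled siJmjd4 and 2.04 ± 0.385 CPM in those labelled siNC.

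The first comparison asked which genes differ between cKO and flox hearts, where the cKO design was meant to induce loss of Jmjd4 in cardiomyocytes. The lower mean of Jmjd4 in cKO hearts, given above, did not itself pass the test. No member passed the test there: 0 of the 9 tested members were called at an adjusted p under 0.05 in edgeR's quasi-likelihood test, where 0.508% of the 18094 genes tested were. Before adjustment, 0 of 9 members had p under 0.05, against 15% of all genes. The Wald test of DESeq2 called 0 of 9 members too, and 9.69% of all genes. Log2 fold changes of the members ran from -0.54 to 0.53 with a median of 0.07, against a median of 0.00034 over all genes tested. Without flox replicate 3 the members' median was -0.13 and that of all genes 0.02. Only Gata4 had values that did not overlap between the groups, where 26.1% of all tested genes did not (14.9% higher and 11.2% lower in cKO). The absence of calls does not show equal levels, since the 95% intervals were wide, and in whole tissue fewer cells of a type and less RNA per cell cannot be told apart.

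**Figure D1:**
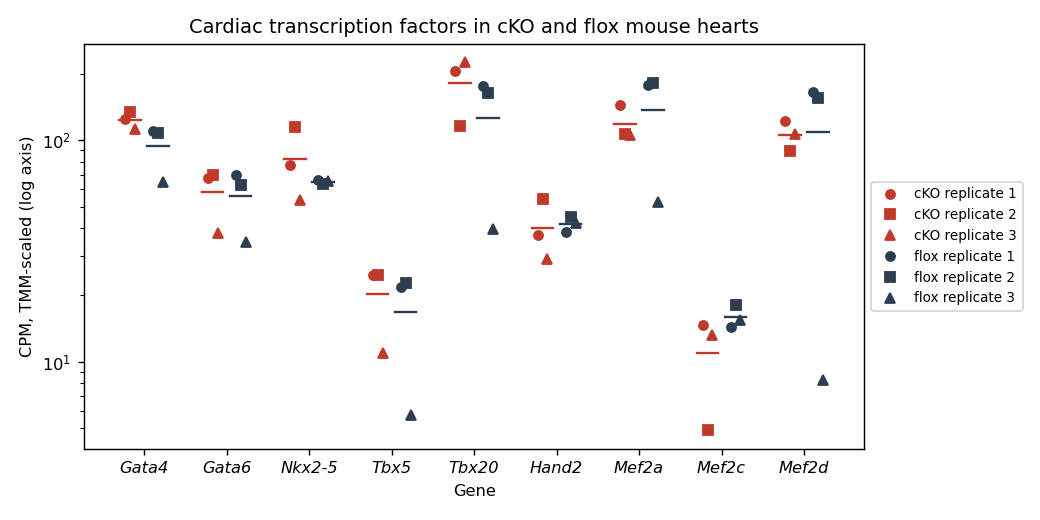
CPM of each detected member in each heart library on a log axis, with cKO in red left of flox in dark blue, symbols for replicates 1 to 3 and a bar at each mean. Flox replicate 3 lies below the other flox libraries for Mef2d, Tbx20, Mef2a, Tbx5, Gata6 and Gata4, and Hand1, at 0 in all 6 libraries, is not drawn.

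Among the GATA factors, Gata4 (chr14:63198922-63271692, minus strand of GRCm38), a regulator of cardiomyocyte growth, was at 125, 135 and 112 CPM in cKO hearts, against 110, 107 and 65.0 CPM in flox hearts. All cKO values lay above all flox values, by little for flox replicates 1 and 2. Its log2 fold change was 0.39 (SE 0.34, 95% interval -0.41 to 1.2, adjusted p = 0.664), and 0.19 without flox replicate 3. Gata6 (chr18:11052064-11085635, plus strand), which overlaps in function with Gata4, had 67.8, 69.9 and 38.1 CPM in cKO hearts and 69.7, 62.7 and 34.7 CPM in flox hearts. Replicate 3 was the lowest library of each group, the groups overlapped, and the log2 fold change was 0.07 (SE 0.40). Without flox replicate 3 it was -0.17.

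Nkx2-5 (chr17:26838664-26845009, minus strand), the homeobox gene of the cardiac lineage, was at 77.7, 114 and 53.5 CPM in cKO hearts, against 65.8, 63.3 and 65.1 CPM in flox hearts. The flox values were close together and the cKO values spanned them, with a log2 fold change of 0.34 (SE 0.36, adjusted p = 0.739). Without cKO replicate 2 the log2 fold change of Nkx2-5 was 0.025. Tbx5 (chr5:119832668-119885219, plus strand), known for its part in septation and conduction, had 24.7, 24.7 and 11.0 CPM in cKO hearts and 21.7, 22.7 and 5.73 CPM in flox hearts. Its log2 fold change was 0.27 (SE 0.58), and -0.13 without flox replicate 3. Tbx20 (chr9:24718138-24774303, minus strand), needed for adult cardiomyocyte function in mice, was at 205, 117 and 225 CPM in cKO hearts and at 176, 163 and 39.8 CPM in flox hearts. The ranges overlapped. Its log2 fold change of 0.53 (SE 0.60, adjusted p = 0.757), the highest of the 9 tested members, was 0.11 without flox replicate 3. Hand2 (chr8:57320983-57324633, plus strand), a ventricular bHLH factor, was at 37.4, 54.2 and 29.1 CPM in cKO hearts and at 38.5, 45.1 and 42.2 CPM in flox hearts (log2 fold change -0.06, SE 0.33).

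The MEF2 genes, mediators of muscle gene activation and of growth signals, had log2 fold changes at or below 0, relative to a median of all genes near 0; with total counts alone as the scaling, that median was 0.54 and theirs were 0.06 (Mef2c), 0.17 (Mef2a) and 0.25 (Mef2d), below it. Mef2c (chr13:83504034-83667080, plus strand) was at 14.7, 4.90 and 13.3 CPM in cKO hearts, against 14.3, 18.0 and 15.4 CPM in flox hearts. One cKO library, replicate 2, was low, the ranges overlapped, and the log2 fold change was -0.54 (SE 0.44, 95% interval -1.59 to 0.50, adjusted p = 0.643). Without cKO replicate 2 the log2 fold change of Mef2c was -0.18. Mef2a (chr7:67231163-67372858, minus strand) had 144, 107 and 106 CPM in cKO hearts and 177, 181 and 52.8 CPM in flox hearts. Mef2d (chr3:88142372-88172086, plus strand) had 122, 89.0 and 107 CPM in cKO hearts and 164, 155 and 8.30 CPM in flox hearts. For both genes the cKO values lay between flox replicate 3 and the other flox libraries.

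For Mef2d, flox replicate 3 was 19.2-fold below the mean of the other flox libraries, a log2 ratio of -4.27. The median log2 ratio of the 500 tested genes nearest to it in transcript length, among those with a known length, was -1.29. Mef2a had -1.76 against a like median of -1.38, and Mef2c, which is longer, had -0.06 against -1.45. The log2 fold change of Mef2d was -0.04 (SE 0.90) with all libraries and -0.59 (SE 0.22, adjusted p = 0.167) without flox replicate 3, and it was positive without flox replicate 1 (0.38), flox replicate 2 (0.30) or cKO replicate 2 (0.068). Mef2a had -0.58 (SE 0.23, adjusted p = 0.191) without it and -0.20 with all 6 libraries. Both missed the threshold, although 7.19% of 19094 genes were called in that fit. With cKO replicate 2 left out as well, a choice also made with earlier results known, Mef2d had -0.49 (adjusted p = 0.0502) where 19.1% were called.

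Jmjd4 and some members share exon sequence with a gene on the other strand, and the sources used here do not say whether counting used strand. The shared length is 307 bases of Jmjd4 and Snap47, 302 bases of Mef2a and Lysmd4, 461 bases of Hand2 and Hand2os1, 531 bases of Mef2d and 1700113A16Rik and 93 bases of Gata6 and 1010001N08Rik. Snap47 and Lysmd4 had 16600 and 5325 counts over the 6 heart libraries, and the symbols of the other partners were not in the mouse table. Reads there may not be separable between the genes.

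**Figure D2:**
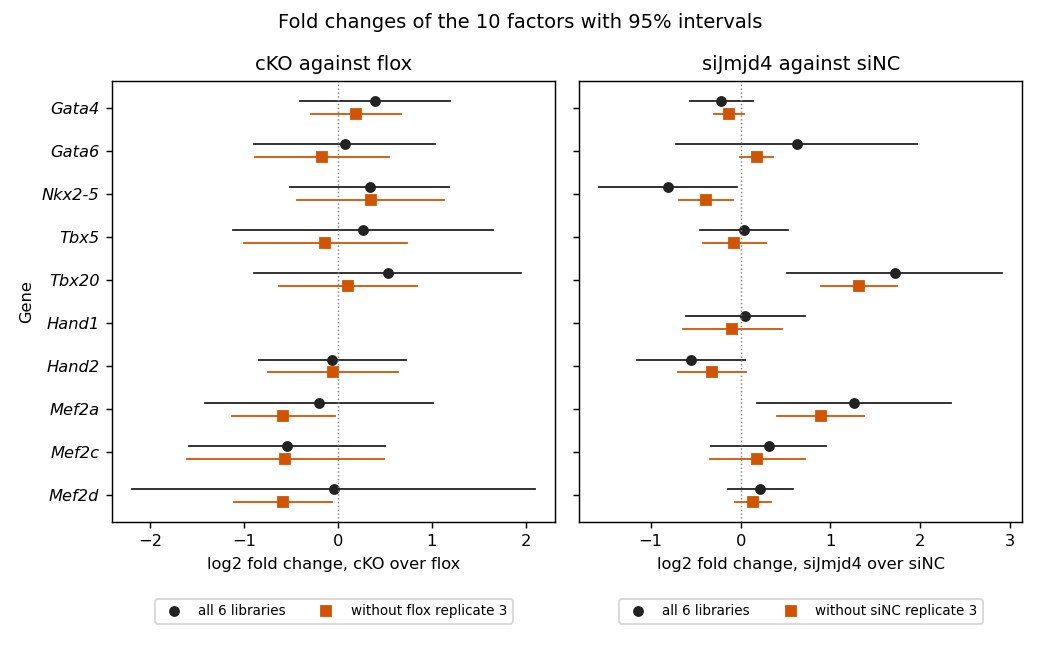
Log2 fold changes with 95% intervals, cKO over flox on the left and siJmjd4 over siNC on the right, from all 6 libraries (black circles) and without replicate 3 of the controls (orange squares). Every heart interval from all 6 libraries spans 0, while in the NRVCs those of Tbx20, at 1.72, and Mef2a, at 1.26, lie above 0 and that of Nkx2-5, at -0.80, lies below.

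In the NRVCs, libraries labelled siJmjd4 were set against siNC to ask the same of cultured cells labelled as cardiomyocytes. These libraries also held fibroblast markers, summed above, so the share of a cell type and the RNA per cell cannot be told apart here either. Tbx20 and Mef2a had the largest differences of the members, both higher, and Nkx2-5, Hand2 and Gata4 had lower values in every library labelled siJmjd4 than in any siNC library. No member passed with all 6 libraries: 0 of 10 were called, where 0.00645% of 15497 genes were, which is 1 gene. At an unadjusted p under 0.05 stood Tbx20, Mef2a and Nkx2-5, 3 of 10, against 8.71% of all tested genes. The Wald test of DESeq2 called 0 of 10, and 1.09% of all genes. Groups did not overlap for 6 of the 10 members, 3 higher and 3 lower, where 40.2% of all tested genes had no overlap (22.4% higher and 17.8% lower).

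**Figure D3:**
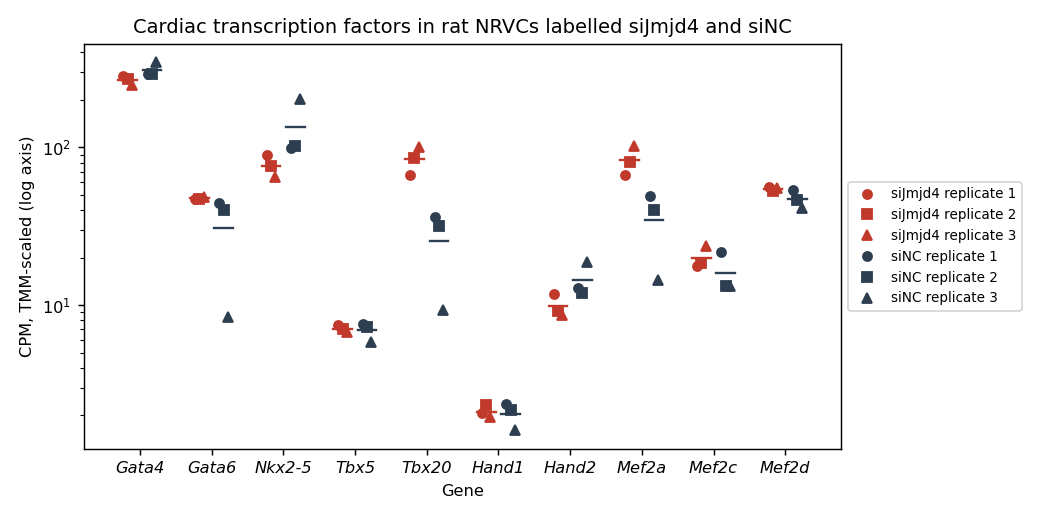
CPM of the 10 members in each NRVC library on a log axis, with libraries labelled siJmjd4 in red left of siNC in dark blue, symbols for replicates 1 to 3 and a bar at each mean. All 3 red points of Tbx20 (66.4 to 101 CPM) and of Mef2a (66.6 to 102 CPM) lie above all siNC points, and siNC replicate 3 is the lowest library for both and for Gata6.

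Tbx20 had 66.4, 85.6 and 101 CPM in NRVCs labelled siJmjd4, against 36.0, 31.6 and 9.25 CPM in the siNC libraries. Every value was above every siNC value, with siNC replicate 3 far below the other siNC libraries. The fold difference was 3.29 (log2 1.72, SE 0.50, 95% interval 0.52 to 2.91, adjusted p = 0.379). Without siNC replicate 3 it was 2.49-fold (log2 1.32, SE 0.18), and Tbx20 passed with an adjusted p of 0.0489, the only one of the 10 members to do so, where 0.57% of 15798 genes were called. Its log2 fold change stayed between 1.15 and 2.04 under all other settings run.

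Mef2a had 66.6, 80.2 and 102 CPM in NRVCs labelled siJmjd4, against 49.3, 40.2 and 14.5 CPM in the siNC libraries. These groups did not overlap either, with a 2.39-fold difference (log2 1.26, SE 0.45, adjusted p = 0.379). Without siNC replicate 3 it was 0.89 (SE 0.20, adjusted p = 0.0795). With siJmjd4 replicate 1 left out as well, Mef2a passed at 1.01 (adjusted p = 0.00705), Tbx20 at 1.44 (adjusted p = 0.000216) and Nkx2-5, lower, at -0.54 (adjusted p = 0.00599), where 15.8% of 15620 genes were called. That library was picked with earlier results of these data known. Its trend with transcript length (rho -0.37) was no larger in size than those of siNC replicates 1 and 2, which were kept (0.47 and 0.38). The other MEF2 genes did not go with Mef2a in size. Mef2c was at 17.7, 18.6 and 23.5 CPM in libraries labelled siJmjd4 and at 21.7, 13.2 and 13.2 CPM in siNC, and Mef2d at 55.9, 52.7 and 55.5 CPM and at 53.3, 46.1 and 41.4 CPM in these groups. Their log2 fold changes were 0.31 (SE 0.26) and 0.22 (SE 0.15), and both turned negative, to -0.16 and -0.14, when each library's trend with transcript length was taken out. That correction left 1.15 for Tbx20 and 0.97 for Mef2a.

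Nkx2-5 had 89.7, 75.6 and 64.5 CPM in NRVCs labelled siJmjd4, against 98.3, 102 and 201 CPM in the siNC libraries. All values labelled siJmjd4 were lower, and siNC replicate 3 lay at 2.01-fold the mean of the other siNC libraries. Nkx2-5 thus had a log2 fold change of -0.80 (SE 0.32, adjusted p = 0.379). Leaving that library out gave -0.38 (adjusted p = 0.134), and taking out the trend with transcript length gave -0.34 (adjusted p = 0.455). Hand2 had 11.7, 9.20 and 8.67 CPM in libraries labelled siJmjd4 and 12.8, 11.9 and 18.7 CPM in siNC libraries (log2 fold change -0.55, SE 0.25), and -0.32 both without siNC replicate 3 and with the length trend taken out. Gata4, at 282, 269 and 249 CPM labelled siJmjd4 and 290, 293 and 345 CPM in siNC, differed by -0.21 (SE 0.15). Hand1, which in the mouse acts with Hand2 in forming the ventricles, had a log2 fold change of 0.05 (SE 0.28).

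Gata6 was at 47.2, 47.0 and 48.7 CPM in libraries labelled siJmjd4 and at 44.1, 40.1 and 8.4 CPM in siNC libraries. Its log2 fold change of 0.62 (SE 0.56) rested on siNC replicate 3, which was 5.01-fold below the mean of the other siNC libraries, and was 0.18 without it. That drop, a log2 ratio of -2.33, compares with a median of -0.14 over the 500 genes nearest to Gata6 in length. Tbx5 was at 7.48, 7.09 and 6.73 CPM in libraries labelled siJmjd4 and at 7.63, 7.29 and 5.85 CPM in siNC libraries, with a log2 fold change of 0.04 (SE 0.20, 95% interval -0.45 to 0.52).

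Ratios between members within a library do not depend on how libraries are scaled. In the libraries labelled siJmjd4 the log2 ratio of Tbx20 to Tbx5 was 3.15, 3.59 and 3.90, against 2.24, 2.12 and 0.66 in siNC libraries. That of Mef2a to Mef2d was 0.25, 0.61 and 0.88, against -0.11, -0.20 and -1.52 in siNC libraries. For Mef2a to Mef2c it was 1.92, 2.11 and 2.12, against 1.18, 1.6 and 0.13 in siNC libraries. Gata4 to Gata6 ran the other way, at 2.58, 2.52 and 2.35 in libraries labelled siJmjd4 and 2.72, 2.87 and 5.36 in siNC, the last in replicate 3. The groups did not overlap for these ratios, as they did not for 40.2% of single genes, and siNC replicate 3 held the extreme value of each. No share was computed over other pairs of genes, and no test was made, since the smallest p of an exact permutation of 3 against 3 libraries is 0.1. In the hearts these ratios overlapped between the groups. Tbx20 to Tbx5 was 3.05, 2.24 and 4.35 in cKO and 3.02, 2.84 and 2.79 in flox hearts. For Mef2a to Mef2d the heart values were 0.24, 0.26 and -0.02 in cKO and 0.11, 0.22 and 2.67 in flox, the last in flox replicate 3. The genes of a pair differ in transcript length, and the part of length in these ratios was not tested.

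**Figure D4:**
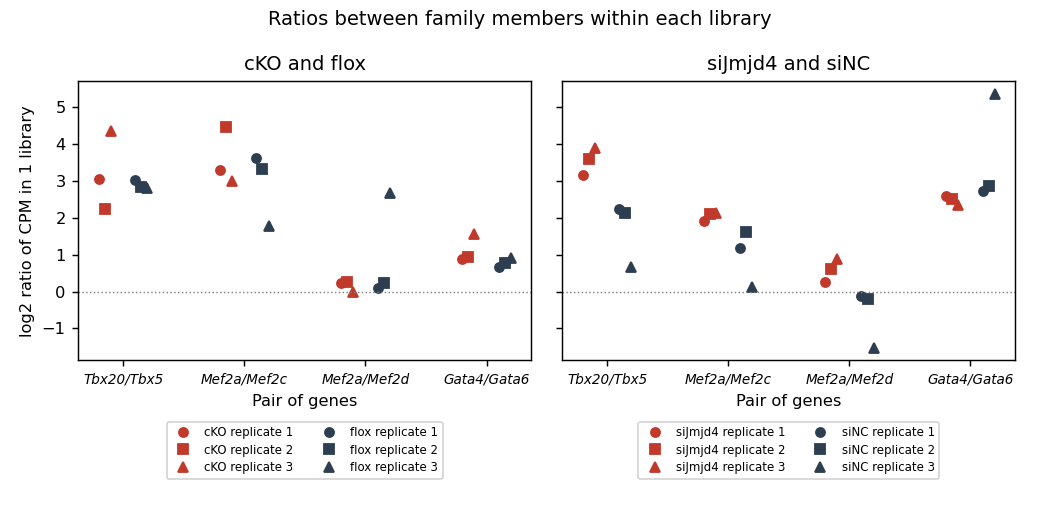
Log2 ratio of CPM between pairs of members in each library, hearts on the left (cKO red, flox dark blue) and NRVCs on the right (labelled siJmjd4 red, siNC dark blue). In the NRVCs the red points of Tbx20/Tbx5 (3.15 to 3.90) lie above all siNC points (0.66 to 2.24), and in the hearts flox replicate 3 stands apart for Mef2a/Mef2d at 2.67.

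The genes whose profile over the 6 NRVC libraries was most like that of Tbx20, among 11818 candidates, were Dennd1b, Itpr2 and Hs6st2. Their root mean square differences from it in centred log2 CPM were 0.061, 0.065 and 0.097. Since they were picked for this likeness, their differences between the groups follow from the choice. Itpr2 encodes an inositol trisphosphate receptor, a calcium release channel, and was at 11.8 ± 2.12 CPM in libraries labelled siJmjd4 and 3.56 ± 2.1 CPM in siNC (SD, n = 3). Dennd1b, an exchange factor for Rab GTPases, was at 5.32 ± 1.25 and 1.67 ± 0.915 CPM in these groups, and Hs6st2, a heparan sulfate sulfotransferase, at 49.4 ± 13.4 and 16.6 ± 9.46 CPM. In the hearts the member with the smallest p was Mef2c, and of 12351 candidates Zfp946, Oxsm and Zfp317 were nearest to it, at 0.18, 0.20 and 0.21.

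The responses of the systems were compared in 1 model of all 12 libraries, for the 9 members detected in both. None passed as different between hearts and NRVCs, where 1.68% of 13482 genes did, and 1 of 9, Nkx2-5, had an unadjusted p under 0.05, against 15.7% of all genes. Its fold change was higher in hearts by 1.14 on the log2 scale (SE 0.49, adjusted p = 0.288), at 0.34 in hearts and -0.80 in NRVCs. For Mef2a the difference, hearts minus NRVCs, was -1.47 (SE 0.71, adjusted p = 0.349), with -0.20 in hearts and 1.26 in NRVCs, and for Tbx20 it was -1.2 (SE 0.81, adjusted p = 0.509). Without flox replicate 3 and siNC replicate 3, Mef2a passed at -1.48 (adjusted p = 0.0127), where 12.8% of 13647 genes did, and Tbx20 had -1.22 (adjusted p = 0.0645). Nkx2-5 had 0.72 (adjusted p = 0.252) in that fit. With 1 library left out, the difference for Nkx2-5 ran from 0.67 to 1.375. The systems differ in species, age, tissue and manipulation, which cannot be told apart here.

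The extreme log2 fold changes of the listed target genes in cKO hearts lay beyond those of the factors, which ran from -0.54 to 0.53. The target list is longer and was chosen with earlier results of these data known, so comparing these extremes tests nothing. Of 24 target genes on a list of sarcomere, channel and peptide genes, 1 was called, higher, with all 6 libraries, where 0.37% of all genes were called higher, and the median log2 fold change was -0.76. Nppa, the atrial natriuretic peptide gene bound by GATA4, NKX2-5 and TBX5, was at 7665, 16480 and 6031 CPM in cKO hearts and at 92.8, 119 and 175 CPM in flox hearts (78.0-fold, adjusted p = 0.0333). Myh7, the slow myosin heavy chain of the fetal ventricle, had 8471, 4032 and 3657 CPM in cKO hearts, against 475, 494 and 78.4 CPM in flox hearts, and did not pass (adjusted p = 0.101). Pln, the inhibitor of the calcium pump, had 142, 228 and 239 CPM in cKO and 865, 909 and 2316 CPM in flox hearts (adjusted p = 0.0931). Myl4, the atrial light chain, had 29.4, 42.1 and 9.49 CPM in cKO and 1.63, 1.16 and 4.18 CPM in flox hearts (adjusted p = 0.0988).

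Without flox replicate 3, 5 targets rose and 5 fell in cKO hearts, where 4.26% of all genes were called higher and 2.93% lower. Those that rose were Nppa (log2 fold change 6.58), Nppb, which encodes the brain natriuretic peptide (3.40), Myl4 (4.28), the atrial light chain gene Myl7 (4.17) and Myh7 (3.48). Those that fell were Kcnj2, an inward rectifier channel (-2.18), Pln (-2.13), the calcium pump gene Atp2a2 (-1.95), the muscarinic receptor gene Chrm2 (-1.80) and myoglobin, Mb (-1.41). These genes, apart from Nppa, Pln, Myl4 and Myh7, were named after their values were seen. In the same fit 0 of 9 members were called, with 2 at an unadjusted p under 0.05, Mef2a and Mef2d, against 23.1% of all genes. Cell type markers were read beside these values. Summed cardiomyocyte markers were at 45150 to 48000 CPM in cKO hearts and 56820 to 78570 in flox hearts. Of these 12 markers 0 were called (without flox replicate 3, 1 higher and 1 lower). Most of them, Myh7 and Pln included, are also on the target list, so their sum is not a separate measure. Of the fibroblast markers, summed above, 0 of 10 were called (3 without flox replicate 3). Summed macrophage markers were at 881 to 1229 CPM in cKO and 414 to 851 CPM in flox hearts, with 0 of 10 called (6 without that library). Of the endothelial markers 0 of 10 were called, and of the smooth muscle markers 1 of 8, higher. No marker of these 5 lists was at 0, and their part in the results was not tested.

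**Figure D5:**
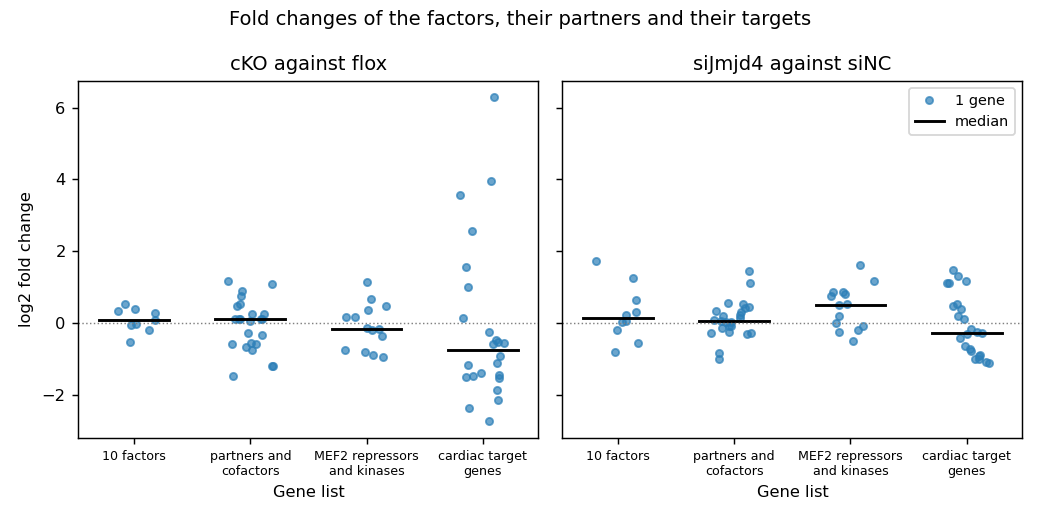
Log2 fold changes of the tested members, of their partners and cofactors, of MEF2 repressors and kinases and of target genes (points, with a bar at each median), cKO over flox on the left and siJmjd4 over siNC on the right. In the hearts the 9 tested members lie between -0.54 and 0.53 and the targets reach 6.29. The list of MEF2 repressors and kinases also holds calcineurin genes.

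Partners and cofactors of the members showed no called change in the hearts. Of 28 listed, 24 were tested and 0 were called, 14 had higher values in cKO hearts, and their median log2 fold change was 0.10, or -0.18 without flox replicate 3. Of all 18094 genes tested, 0.508% were called and 9048 had higher values in cKO hearts. The smallest p was that of Hey2, a Notch-induced repressor of atrial genes in the ventricle, at 2.22, 3.61 and 2.54 CPM in cKO hearts and 5.09, 4.75 and 9.32 CPM in flox hearts (2.28-fold lower, adjusted p = 0.233). Smyd1, a muscle histone methyltransferase, was at 383, 390 and 285 CPM in cKO and 521, 576 and 592 CPM in flox hearts (adjusted p = 0.419). Without flox replicate 3, 1 of 24 partners was called, lower, where 2.93% of all genes were called lower. This was the conduction system factor Tbx3, named after its value was seen (log2 fold change -1.23, adjusted p = 0.0223).

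Among 14 MEF2 repressors, kinases and calcineurin genes 0 were called in the hearts, where 0.508% of all genes were. The median was -0.16, or -0.34 without flox replicate 3. The calcineurin genes are Ppp3ca, Ppp3cb, Ppp3r1 and that of the inhibitor Rcan1, so the median mixes genes of different roles. Rcan1, a calcineurin inhibitor whose gene is itself switched on by calcineurin signalling, was at 151, 204 and 296 CPM in cKO hearts and 82.2, 83.5 and 129 CPM in flox hearts. Its log2 fold change of 1.14 (adjusted p = 0.248) became 1.39 without flox replicate 3, where it passed (adjusted p = 0.0460). Mapk14, the p38 kinase that acts on MEF2 proteins, was at 20.3, 38.7 and 39.8 CPM in cKO and 70.6, 72.8 and 47.1 CPM in flox hearts (adjusted p = 0.313). Prkd1, a kinase of class II histone deacetylases, passed as lower without flox replicate 3 (-1.26, adjusted p = 0.0442), and Hdac9, one of those deacetylases, did not (-1.02, adjusted p = 0.0902). In that fit 1 of 14 was called higher and 1 of 14 lower, where 4.26% of all genes were called higher and 2.93% lower.

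In the NRVCs 0 of 24 tested partners, 0 of 14 MEF2 repressors, kinases and calcineurin genes and 0 of 24 targets were called. Their median log2 fold changes were 0.06, 0.51 and -0.28 against 0.0065 over all genes tested. Without siNC replicate 3 these medians were -0.03, 0.20 and -0.17, so that of the partners turned sign. Tead1, the DNA-binding partner of YAP, had 27.5, 41.2 and 48.5 CPM in libraries labelled siJmjd4 and 20.6, 14.7 and 7.42 CPM in siNC libraries, with no overlap (log2 fold change 1.45, adjusted p = 0.379, and 1.14 without siNC replicate 3). Ppp3ca, a catalytic subunit of calcineurin, had 23.3, 29.7 and 33.8 CPM labelled siJmjd4 and 19.3, 16.6 and 11.7 CPM in siNC (log2 fold change 0.87, adjusted p = 0.379, and 0.69 without siNC replicate 3). Among targets, Myl2, the ventricular light chain, had 77.3, 101 and 97.9 CPM labelled siJmjd4 and 132, 152 and 176 CPM in siNC (1.66-fold lower, adjusted p = 0.379). Nppa had 5102, 4050 and 4098 CPM labelled siJmjd4 and 5420, 5837 and 9439 CPM in siNC (log2 fold change -0.64, adjusted p = 0.379, and -0.35 without siNC replicate 3). Without siNC replicate 3 the target Slc8a1, the sodium-calcium exchanger, was the 1 called, higher at 0.83 (adjusted p = 0.0489). In that fit 0.57% of 15798 genes were called. Of the markers summed above, 0 of 11 for cardiomyocytes were called, with 1 higher and 10 lower values. For fibroblasts 0 of 10 were called, with 7 higher values. Of all 15497 genes tested, 7797 had higher values. The part of these markers in the results was not tested.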

How the data were processed

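The values deposited by the authors are raw counts by gene symbol, in 1 table for the hearts and 1 for the NRVCs. Per the submitters' processing notes, the builds were mm10 and rn6 and the tools edgeR 3.20.9, HISAT2 2.1.0 and StringTie 1.3.4, without their roles. How reads were assigned to genes, and with which annotation and strand setting, is not stated. Columns were matched to samples by name.

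Each table was filtered with filterByExpr (18094 mouse and 15497 rat genes kept), scaled by TMM and fitted on its own 6 libraries with edgeR 4.0.16 (quasi-likelihood, robust, R 4.3.3), two-sided. The call threshold was 0.05 after Benjamini-Hochberg adjustment across the whole fit. The systems were compared over 16066 symbols paired with case ignored. DESeq2 1.42.0, other scalings and filters, an offset for transcript length (smooth of span 0.3), a replicate block and fits with libraries left out were alternatives. Mouse gene models are from GENCODE M21 on GRCm38 and also gave lengths for rat genes of the same symbol, covering 78.9% of tested mouse and 82.8% of tested rat genes. In the hearts fewer than 80 in 100 genes had a length, so the length check is void there and its values only complete the alternatives. Genes with no length took the median correction. The code was tested on simulated counts. No library was a duplicate: within groups, chi-square over its degrees of freedom was 26.6 to 1699 between counts of 2 replicates.

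Members, lists and tests were chosen with earlier results of these data known. The text names the members, Jmjd4, up to 4 genes per list (those of smallest p), and the 3 genes most like 1 member in each system in centred log2 CPM (prior count 2, mean of at least 1 CPM). It gives a selection of those list genes. The older symbol Mkl1 stood for Mrtfa. Values are mean ± SD, n = 3. SE and 95% intervals come from the quasi-likelihood F statistic. They cover the spread between libraries, while the limits for counts of 0 cover counting error only.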

Additional observations from a re-analysis of the deposited data

How the results depend on the processing

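The number of genes called turned on the settings. In the hearts edgeR called 92 genes with all libraries (67 higher, 25 lower in cKO), 20 with total counts alone (20 higher, 0 lower), 146 without a filter, 1053 with the length offset, which is void in the hearts because only 78.9% of genes had a length, 0 with the replicate block (1591 at an unadjusted p under 0.05), 0 to 1373 when 1 library was left out (the highest without flox replicate 3, and 0 without any other, with 1657 to 2587 at an unadjusted p under 0.05) and 3585 without flox replicate 3 and cKO replicate 2. DESeq2's Wald test called 1748. In the NRVCs it called 1 gene, 0 with the replicate block (472 at an unadjusted p under 0.05), 0 to 90 with 1 library left out (the highest without siNC replicate 3, and 339 to 834 at an unadjusted p under 0.05 where 0 were called) and 2470 without siNC replicate 3 and siJmjd4 replicate 1. DESeq2's Wald test called 168. For the difference between the systems the counts were 226 (180 higher, 46 lower in hearts), 343 with total counts alone (328 higher, 15 lower), 58 to 899 with 1 library left out and 1752 without flox replicate 3 and siNC replicate 3. Members called stayed at 0 in the hearts under every alternative run, and were 0 to 1 in the NRVCs with 1 library left out, 3 without siNC replicate 3 and siJmjd4 replicate 1, and 1 for the difference without both replicates 3. The cause of each shift was not tested.

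Several small heart fold changes (log2) turned sign. Gata6 (0.07) was at -0.33 and Tbx5 (0.27) at -0.32 without flox replicate 3 and cKO replicate 2. With total counts alone, which move the median of all genes to 0.54 (0.00034 by TMM), Hand2 was at 0.48, Mef2a at 0.17, Mef2c at 0.057 and Mef2d at 0.25, all 4 below that median, so these signs did not turn relative to the other genes. With the length offset Hand2 was at 0.0094 and Mef2d at 0.066, and Mef2d was at 0.59 with the replicate block. Leaving out 1 library gave ranges of -0.17 to 0.31 for Gata6, -0.13 to 0.57 for Tbx5, -0.33 to 0.14 for Hand2, -0.58 to 0.054 for Mef2a and -0.59 to 0.38 for Mef2d. In the NRVCs, the length offset gave -0.029 for Tbx5, -0.16 for Mef2c and -0.14 for Mef2d, and leaving out siNC replicate 3 and siJmjd4 replicate 1 gave -0.13 for Tbx5 and -0.10 for Hand1. With 1 library left out Tbx5 ran from -0.070 to 0.12 and Hand1 from -0.091 to 0.17. The difference for Tbx5 ran from -0.19 to 0.52 and was -0.073 without flox replicate 3 and siNC replicate 3, and that for Mef2d ran from -0.83 to 0.14. Of the 126, 139 and 144 values of members under alternatives, 106, 126 and 139 kept their direction and side of the threshold in the hearts, the NRVCs and the difference.

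Same-numbered libraries did not deviate together (correlations of 0.36, -0.48 and -0.33 in the hearts and -0.14, -0.02 and -0.15 in the NRVCs), so the replicate numbers were not taken to pair the libraries.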
